A study of Mus musculus with 38 samples.

Results

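The cells described here were single E14 mouse embryonic stem cells (mESCs) that had been exposed to retinoic acid (RA) for 72 h. They were read by SCRB-seq, a plate-based method that tags each mRNA molecule with a unique molecular identifier (UMI), so that values are counts of molecules. All wells of the 72 h plate with more than 2000 UMIs were taken as cells, which gave 235 of 384 wells there and 2448 of 3456 wells over the 9 plates of the time course. The lowest well kept held 2017 UMIs and the highest well left out held 1998. At 72 h the cells had a median of 3706 UMIs (range 2017 to 53697) and 1398 detected genes. The wild-type line was kept in 2i/L medium (a MEK inhibitor, a GSK3 inhibitor and LIF), then moved to N2B27 medium with 0.25 µM RA, and single cells were sorted into 1 plate of 384 wells at 0 h (still in 2i/L), 6, 12, 24, 36, 48, 60, 72 and 96 h. Each plate is 1 library of 1 culture, so cells are not replicates here and no difference between plates or between cells was tested. All plates use the same well names, and 91 to 214 of the well names kept on another plate also occur among the 235 wells, but a name marks a position on a plate and not a cell.

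Bulk RNA libraries of the same line, read with the same chemistry, gave a second readout. They comprised 2 libraries in 2i/L, 2 of sorted ectoderm-like cells and 2 of sorted extraembryonic endoderm (XEN)-like cells at 96 h of RA, 1 of unsorted cells at 72 h, and 1 each of 4 gates sorted at 72 h. The gates were PDGFRA+/CD24- cells and PDGFRA-/CD24 cells in terciles T1, T2 and T3. PDGFRA is a growth factor receptor on the surface of XEN cells, and CD24 is a surface protein that was used to mark the ectoderm side. The transcripts followed the gates. Cd24a was at 49.7, 122 and 256 CPM (counts scaled to a common library total) in T1, T2 and T3 and at 14.7 in PDGFRA+/CD24- cells, where Pdgfra was at 116 CPM against 2.30 to 15.5 in T1 to T3.

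RA is a ligand of nuclear receptors that drives mESCs out of pluripotency, towards neuroectoderm and, in part of the cells, towards XEN, the lineage that lines the yolk sac. XEN cells build a basement membrane from type IV collagen (Col4a1, Col4a2), laminin (Lama1, Lamb1, Lamc1) and the collagen-binding glycoprotein SPARC. Prtg encodes protogenin, a cell surface protein of early neural tissue, and Ccnd2 encodes cyclin D2, which drives the G1 phase in neural progenitors. A small and changing share of mESCs in culture also passes through a 2-cell-like state, marked by the Zscan4 genes and by other genes that are active in the 2-cell embryo.

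To compare cells of unequal depth, every cell was thinned to 2000 UMIs, and the expected value over all possible thinnings was used. The spread of a gene is given as its Fano factor, the variance over the mean, which is 1 for counts that follow a Poisson law. Of 23481 genes, 3318 had a mean of at least 0.1 thinned UMIs per cell, and 2196 of these (66.2%) reached a Fano factor of 1.5, the level called above Poisson spread. This set the background for every count given below. Among the 2196 genes, 3 groups that varied together held most of the pairs that did not rest on 1 well. They are called by a leading gene: the Sec23ip group (83 genes), the Dcdc2c group (33 genes) and the Sparc group (19 genes). The groups were formed after the data had been seen, as sets of genes joined by a correlation of 0.4 or more, and they carry no test in these cells. Another of the 82 sets joined in this way held 21 genes, but of its 90 pairs at 0.3 or more, 1 was left without the well that added most, and it is not described further.

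The Dcdc2c and Sec23ip groups each shared stretches of transcript sequence, which are shown because counting could pass reads between genes that hold them. In the GENCODE transcripts, a 24-base run was shared by 55 of 76 Sec23ip group genes with a transcript (72.4%), against 190 of 3095 other tested genes (6.14%). Another 24-base run was shared by 16 of 32 Dcdc2c group genes (50.0%), against 8 of 3139 others (0.255%). Each run was picked as the one held by the most genes of its group. A higher share in members than in others was thus built into the choice and is no test. Both orientations were counted, and the letters are as found on the strand on which most members carry the run.
Sec23ip group run: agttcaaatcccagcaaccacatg
Dcdc2c group run: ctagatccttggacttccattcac
The letters of the first run are known from B2 elements, a family of short interspersed repeats of the mouse genome. The wider stretch around it, bases 1204 to 1390 of the Nanog transcript, aligned to 66 of the 76 members (86.8%, median identity 93.1%) and to 494 of the 3095 others (16.0%, median identity 85.2%). An alignment of at least 90% identity was found for 51 members (67.1%) and 102 others (3.30%). Of the 66 members, 20 held the stretch in the orientation of Nanog and 46 in the opposite one. The wider stretch around the second run, bases 25 to 139 of the AA792892 transcript, aligned to 20 of the 32 members (62.5%) and to 9 of the 3139 others (0.287%), and began a median of 8.5 bases from the 5′ end of the members' transcripts. Both wider stretches were placed around the bases that the most group genes matched, so their shares in members and others are descriptions too.

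The Dcdc2c group also shared letters upstream. RefSeq promoter windows (GRCm38.p6, 250 bases before to 50 after the start) were matched for 22 of its 33 genes, and 8 of these held the 15 letters TGACCCTTATCTGGA on either strand. The same letters stood in 16 of all 27025 windows (0.0592%) and in none of the 16 windows matched for the Sparc group. The letters were picked as a run shared by the most of the Dcdc2c group's own windows. Their higher share in that group was thus built into the choice and is no test. The 8 genes were 2310039L15Rik, D17Ertd648e, Gm4340, Gm21304, Gm8764, Gm20765, Gm21293 and Gm21312. The last 6 of these are near copies, since the transcript of Gm4340 aligned to each of the other 5 at 99.05% identity over 1258 bases, so they are not separate instances. The bases before the start of 3 of them, 5′ to 3′ on the gene's strand, are shown with these letters in capitals. The match begins 228, 8 and 245 bases before the start in the order shown, and the second window runs 7 bases past the start so that it holds the whole match.
Gm4340, chr10:104193792-104194041, plus strand: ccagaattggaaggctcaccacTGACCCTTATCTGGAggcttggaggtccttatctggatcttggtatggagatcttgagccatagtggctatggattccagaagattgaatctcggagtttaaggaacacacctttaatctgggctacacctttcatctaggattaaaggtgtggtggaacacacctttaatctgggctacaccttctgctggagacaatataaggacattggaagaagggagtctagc
2310039L15Rik, chr10:95336026-95336282, plus strand: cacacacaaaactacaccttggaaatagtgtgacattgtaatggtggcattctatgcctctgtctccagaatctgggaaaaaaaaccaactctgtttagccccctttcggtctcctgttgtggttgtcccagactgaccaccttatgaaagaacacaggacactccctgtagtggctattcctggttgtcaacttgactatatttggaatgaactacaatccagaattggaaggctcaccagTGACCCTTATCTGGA
D17Ertd648e, chr17:11883190-11883439, minus strand: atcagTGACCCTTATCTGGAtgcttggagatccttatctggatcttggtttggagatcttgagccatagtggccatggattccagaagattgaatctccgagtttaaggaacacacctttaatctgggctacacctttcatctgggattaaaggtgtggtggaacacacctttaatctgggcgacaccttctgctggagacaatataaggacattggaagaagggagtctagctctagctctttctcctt
A match is a description of the letters and not of a bound factor. No such stretch was found between the marker genes, since no pair among Sparc, Col4a1, Prtg and Ccnd2, nor Sparc and Lama1, aligned to each other.

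By the threshold of 1.5 and by the mean Fano factor, the 72 h plate had the widest spread of the time course. It did not by every measure. At a Fano factor of 2 or more, the 96 h plate had 631 of 3524 tested genes, against 576 of 3318 at 72 h. For genes of 2 to 5 thinned UMIs, the median Fano factor was 1.92 at 96 h and 1.83 at 72 h. The share of tested genes at a Fano factor of 1.5 or more was 66.2% at 72 h, between 4.91% and 10.5% at 0, 6, 12 and 36 h, 24.8% at 48 h, 40.2% at 60 h, 55.6% at 96 h and 57.2% at 24 h. Over a fixed set of 2935 genes the mean Fano factor was 1.3 at 0 h, 1.60 at 60 h, 1.81 at 72 h and 1.63 at 96 h. The 24 h plate, at 1.58, stood above both of its neighbours in time (1.31 at 12 h and 1.34 at 36 h). The count of wells with no more than 500 UMIs moved with this order in part. It was 19 at 72 h, 94 at 96 h, 16 at 24 h, 14 at 60 h and 2 to 6 elsewhere, and its part in the spread was not tested. At 72 h the median Fano factor over all tested genes was 1.63, and it rose with the level, from 1.58 for genes of 0.1 to 0.2 thinned UMIs to 1.83 for genes of 2 to 5. The threshold cut through a dense range, with Gapdh at 1.49994 just below it and Dnajc5 at 1.5001 just above. A stricter measure, 1.5 times the running median of the 100 genes nearest in level, was chosen after the data had been seen and was passed by 171 of the 3318 genes (5.15%). Of these, 24 were in the Dcdc2c group, 15 in the Sec23ip group and 7 in the Sparc group.

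**Figure D1:**
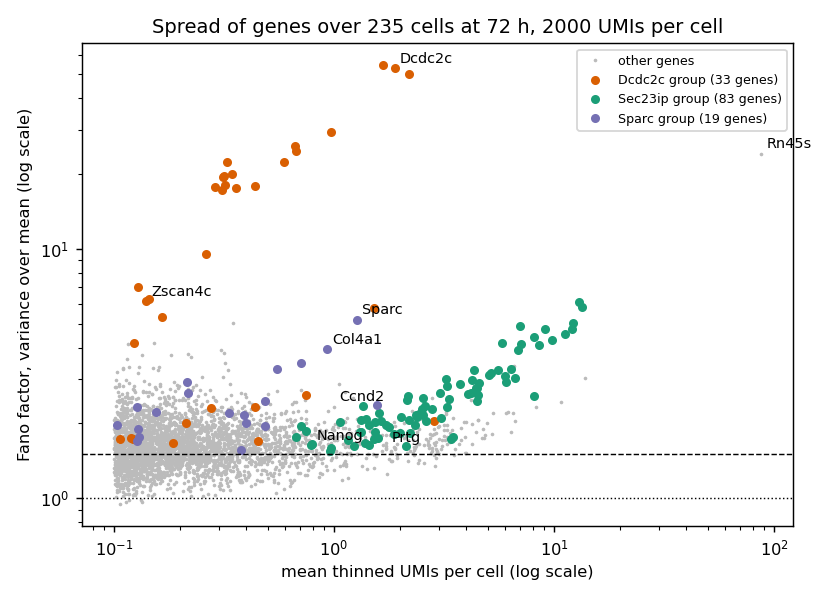
Spread of each tested gene over the 235 cells at 72 h. The x axis is the mean in thinned UMIs per cell (log scale), the y axis the Fano factor (log scale), colours mark the 3 gene groups, the dotted line is at 1 and the dashed line at 1.5. Dcdc2c stands at 52.8 and Sparc at 5.19, while Prtg, at 1.59, lies among the bulk of genes.

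The 4 marker genes differed in spread. Sparc had a mean of 1.27 thinned UMIs per cell and a Fano factor of 5.19, which is 3.00 times the running median of genes at its level. Col4a1 had a mean of 0.926 and a Fano factor of 3.95, 2.38 times that median. The 10% of cells highest in each gene (24 cells) held 57.2% of its thinned UMIs for Sparc and 58.4% for Col4a1. Ccnd2 (mean 0.995) stood between these genes and the bulk, with a Fano factor of 2.32, 1.39 times the running median, and 43.1% of its UMIs in its top 24 cells. Prtg (mean 1.72) had a Fano factor of 1.59, which was 0.895 times the running median, with 27.2% of its UMIs in its top 24 cells. Sparc and Col4a1 were thus spread more widely than genes of their level, and Prtg was not.

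In single cells, Sparc ranged from 0 to 92.8 UMIs per 10000 with a median of 3.05, and Col4a1 from 0 to 70.8 with a median of 1.32. Prtg ranged from 0 to 34.0 with a median of 8.15, and Ccnd2 from 0 to 34.7 with a median of 2.79. Summed over all cells, Sparc stood at 6.50 UMIs per 10000 (exact 95% Poisson interval 6.07 to 6.95) and Col4a1 at 4.41 (4.06 to 4.78). Prtg stood at 9.53 (9.01 to 10.1) and Ccnd2 at 5.48 (5.08 to 5.89). These intervals cover counting error only, and wells with more UMIs weigh more in the sums. In the same measure Sparc stood at 1.34 at 0 h, 4.06 at 60 h and 33.4 at 96 h, and Col4a1 at 0.0478, 2.52 and 24.97. Prtg was highest on the 72 h plate, with 7.76 at 60 h and 4.79 at 96 h, and so was Ccnd2, with 1.90 at 60 h and 3.83 at 96 h. The Fano factor of Sparc was 1.12 at 0 h, 2.75 at 60 h and 4.10 at 96 h, and that of Col4a1 was 0.983, 1.96 and 4.08. For Sparc the 72 h value was thus the highest of the 9 plates, while its level went on to be higher at 96 h.

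The other basement membrane genes followed the same pattern. Lama1 (laminin α1) had a mean of 0.710 and a Fano factor of 3.47, Lamc1 (laminin γ1) of 0.548 and 3.29, and Lamb1 (laminin β1) of 0.486 and 2.45. Col4a2, the partner chain of Col4a1, had a mean of 0.388 and a Fano factor of 2.15. Dab2, an endocytic adaptor of XEN cells, had a mean of 0.218 and a Fano factor of 2.26. All 7 tested genes of the XEN marker list of 11 passed the threshold, with a median Fano factor of 3.29 against 1.63 over all tested genes. Gata4, Gata6, Sox17 and Pdgfra, transcription factors and a receptor of this lineage, were below the level of 0.1 thinned UMIs.

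On the ectoderm list of 12, 11 genes were tested and 8 passed, with a median Fano factor of 1.62, close to that of all genes. Crabp1, a cytoplasmic binding protein of RA, had the widest spread of the list (mean 0.704, Fano factor 2.72, 1.61 times the running median). Fabp5, another lipid carrier, was at 1.91 (mean 0.426), Cd24a at 1.85 (mean 0.541) and the heparin-binding growth factor gene Mdk at 1.71 (mean 2.17). The transcription factors Meis1 and Sox11 were at 1.62 and 1.56. Pax6, Sox1 and Hoxb2, also transcription factors, had values of 1.48, 1.38 and 1.34, below the threshold.

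Sparc and Col4a1 varied together. Their Pearson correlation over the 235 cells was 0.61, against -0.01 at 0 h, 0.40 at 48 h, 0.28 at 60 h and 0.57 at 96 h. All correlations over cells are descriptions of 1 plate, whose cells share a library and a sort, and carry no p. The other marker pairs were near 0. Sparc and Col4a1 each had an r of -0.11 with Prtg, r with Ccnd2 was -0.05 for Sparc and -0.09 for Col4a1, and Prtg and Ccnd2 had an r of -0.00. With the XEN list sum, each gene left out of its own sum, the 8 highest correlations were those of Sparc (0.78), Lama1 (0.77), Lamc1 (0.65), Col4a1 (0.65), Lamb1 (0.59), Serpinh1 (0.54), Col4a2 (0.53) and Lrpap1 (0.52). Serpinh1 (the collagen chaperone HSP47) and Lrpap1 (a chaperone of lipoprotein receptors) were the 2 of these that are not on the list. With the ectoderm list sum the highest were far lower: Hnrnpa2b1 (0.25), Rps3a1, Nap1l1, Tspan3, Lsm14b, Bag6, Rps14 (all 0.19) and Prkd3 (0.18).

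Within the XEN list, 21 pairs had r between 0.17 and 0.72 with a median of 0.51, and 14 reached 0.3. Over all 2410110 pairs of genes above Poisson spread, r ran from -0.37 to 0.97 with a median of -0.01, and 6026 pairs (0.25%) reached 0.3. Within the ectoderm list, 55 pairs had a median r of 0.01 and a highest value of 0.18, so that no pair reached 0.3. Between the lists, 64 of 77 pairs were below 0, with a median of -0.05 and a lowest value of -0.17. None reached -0.2, the level called mutually exclusive here, which 816 of all pairs (0.0339%) did. That count depended on the measure, and was 95 after thinning to 1000 UMIs, 437 without the wells high in the Dcdc2c group and 25271 with Spearman's coefficient. By these pair values the XEN genes moved as a set, no such set was seen for the ectoderm genes, and pairs across the lists were at most weakly opposed. Counting noise lowers r more for genes with a Fano factor nearer 1. The median Fano factor was 1.62 for ectoderm and 3.29 for XEN genes, so weak joint variation of ectoderm genes could be missed.

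The sums of the lists showed the opposition more clearly. The XEN and ectoderm sums had an r of -0.24, against -0.03 at 0 h, -0.17 at 60 h and -0.45 at 96 h. As a rank correlation of UMIs over the total it was -0.0028, so the relation did not hold in ranks. The XEN sum had a Fano factor of 13.3 and the ectoderm sum of 2.30. The 24 cells highest in each list held 54.3% of the XEN UMIs and 19.8% of the ectoderm UMIs.

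The cells were laid out by their XEN list sum in 3 ranges, whose limits were chosen after the data had been seen. A total of 17 cells (7.23%) had at least 20 of 2000 thinned UMIs in XEN list genes, 7 cells had 8 to 20, and 211 cells (89.8%) had fewer than 8. The 17 cells held 46.3% of all XEN list UMIs and had 20.9 to 46.4 each, with a median of 29.5, against a median of 1.93 in the 211 cells. These are ranges of a score and not cell types. Of the 24 cells with the highest sums and those next to them, 5 lay within 2 thinned UMIs of the edge between them, at 8.92. The depth of the ranges was alike, with median totals of 3663, 3111 and 3724 UMIs from the highest range to the lowest.

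Sparc, Lama1 and Col4a1 are part of the sum that set the ranges, and their values are given as a description. Sparc had 3.18 to 18.6 thinned UMIs in the 17 cells, with a median of 8.27, and at most 3.39 in the 211 cells, with a median of 0.50. Medians of Lama1 were 4.94 and 0, and medians of Col4a1 4.51 and 0. In the ectoderm direction, the ectoderm list had a median of 3.60 thinned UMIs (0 to 8.97) in the 17 cells and of 7.86 (0.35 to 20.6) in the 211, so that the ranges overlapped. Prtg had medians of 0.60 and 1.72, and Ccnd2 of 0.15 and 0.60. Prtg UMIs were present in 12 of the 17 cells and Ccnd2 UMIs in 9. Ectoderm transcripts were thus lower in the cells with most XEN transcripts, but not absent.

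Other gene lists differed between the same ranges. Collagen folding genes had a median sum of 6.92 in the 17 cells and 1.11 in the 211, and endoplasmic reticulum (ER) folding genes of 15.0 and 6.53. The cathepsin and lysosome list had 3.09 and 1.36, and Dppa5a, an RNA-binding protein of pluripotent cells, had 1.03 and 0.33. Imprinted genes were lower in the 17 cells, with 2.17 against 4.04. DNA replication genes had medians of 2.97 and 3.70, and mitosis genes of 6.35 and 8.21, with ranges that overlapped.

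**Figure D2:**
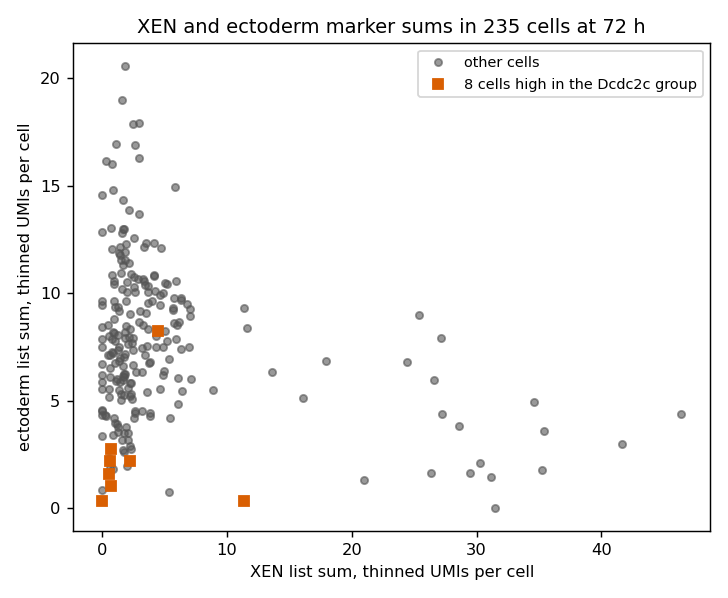
XEN list sum (x axis) against ectoderm list sum (y axis) in each of the 235 cells at 72 h, in thinned UMIs of 2000. Squares mark the 8 wells with at least 20 thinned UMIs of Dcdc2c group genes. The 17 cells with 20.9 to 46.4 XEN UMIs have 0 to 8.97 ectoderm UMIs, and the other cells spread over 0.344 to 20.6.

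Within the ranges, XEN genes correlated less with each other, as narrowing the range of a sum lowers r among its members. The r of Sparc and Col4a1 was 0.10 in the 211 cells and 0.10 in the 17. The r of the XEN and ectoderm sums was 0.09 in the 211 and -0.13 in the 17. That of Sparc and Prtg was 0.03 in the 211 and 0.35 in the 17, against -0.11 over all cells. The Fano factor of Sparc was 1.31 in the 211 cells and 2.31 in the 17. On the other plates, no cell from 0 to 48 h reached 20 thinned UMIs of XEN genes, 4 cells (1.47%) did at 60 h and 75 of 137 (54.7%) did at 96 h. Median XEN sums were 0.57 at 0 h, 1.85 at 60 h, 2.22 at 72 h and 24.7 at 96 h. The 72 h plate thus held the high cells as a minority, and the 96 h plate as the larger share of the cells kept.

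Markers of other cell types were low. Mesoderm list genes summed to 0.52 UMIs per 10000 over all cells and trophoblast list genes to 0.25, and no gene of either list reached 0.1 thinned UMIs. The XEN list sum had an r of -0.01 with the total UMIs of a well, 0.02 with the genes detected, -0.20 with the plate row and -0.08 with the column. Over the 24 lists and 3 groups, r with the plate row ran from -0.20 to 0.10 and with the column from -0.17 to 0.14. The part of well position in the results was not tested.

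The Sparc group of 19 genes went beyond the marker list. It held the basement membrane genes Sparc, Col4a1, Col4a2, Lama1, Lamb1 and Lamc1, the collagen-modifying P4ha2 and Serpinh1, the ER chaperone Hsp90b1, and the endocytic receptor Cubn with Lrpap1. Its other genes were Lifr (the LIF receptor), Cst3 (a cathepsin inhibitor), Ctsz (a cathepsin), Dusp9 (a MAP kinase phosphatase), Atp1b1 (a sodium pump subunit), Scp2 (a lipid carrier), Iars (isoleucyl-tRNA synthetase) and Cyb5r4. Sparc had an r of 0.72 with Lama1, 0.53 with Col4a2, 0.50 with Serpinh1, 0.49 with Cubn and 0.45 with Lrpap1, and of 0.28 with Dab2, which is on the XEN list but not in the group. Of the group's 171 pairs, 65 reached 0.3, and 40 of these (61.5%) still did without the 1 well that added most to each. The median r of its pairs was within 0.01 of 0 from 0 to 36 h, 0.03 at 48 h, 0.08 at 60 h, 0.25 at 72 h and 0.19 at 96 h.

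**Figure D3:**
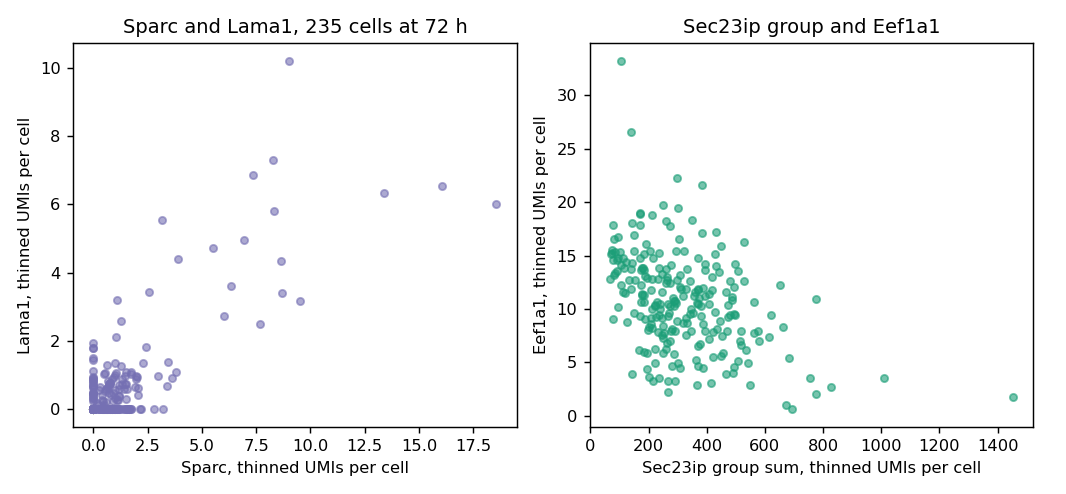
Values of 2 pairs in each of the 235 cells at 72 h, in thinned UMIs of 2000. The left panel plots Sparc (x) against Lama1 (y), with r of 0.72, and the right panel plots the summed Sec23ip group (x) against Eef1a1 (y), with r of -0.38.

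Sorted cells gave a readout that the group did not use. Between the 2 sorted XEN-like and the 2 sorted ectoderm-like libraries at 96 h, 624 of 8945 tested genes (6.98%) were higher in XEN and 511 (5.71%) in ectoderm at a Benjamini-Hochberg adjusted p under 0.05 in edgeR's quasi-likelihood test. Without the first ectoderm library these counts fell to 131 and 131, without the second to 435 and 222, and without the first or second XEN library to 310 and 155 or 335 and 213. Of the 19 Sparc group genes, 16 were higher in XEN, with a median log2 fold change of 2.75 against -0.06 over all tested genes. The count was 12 without the first ectoderm library, 14 without the first XEN library, 15 with DESeq2 and 16 or more in the other alternatives. These libraries are from a later time than the 72 h cells. The authors describe biological replicates for mESCs and for both sorted groups. The labels do not say whether the 2 libraries of a group came from separate cultures. The p-values measure only the spread between these libraries.

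Sparc was at 243 and 148 TMM-scaled CPM in 2i/L, 202 and 885 in ectoderm and 5012 and 3613 in XEN, a log2 fold change of XEN over ectoderm of 2.99 (SE 0.55, edgeR adjusted p = 0.0055). Both XEN libraries were above all others, and the 2 ectoderm libraries differed from each other by a larger ratio than the XEN ones did. Col4a1 was at 8.21 and 5.09 in 2i/L, 54.5 and 150 in ectoderm and 1110 and 250 in XEN (log2 fold change 2.75, SE 0.62, edgeR adjusted p = 0.014). Here the groups did not overlap, but the lower XEN library was less than 1 log2 unit above the higher ectoderm library. The call of Col4a1 was lost without the first ectoderm library (edgeR adjusted p = 0.16), without the first XEN library (edgeR adjusted p = 0.17, log2 fold change 1.32) and with DESeq2 (adjusted p = 0.076), and its log2 fold change ran from 1.32 to 3.72 over 12 alternatives. Lama1 was at 13.5 and 22.9, 25.1 and 69.1, and 997 and 424 (log2 fold change 3.93, SE 0.52, edgeR adjusted p = 0.0014). Cubn, the vitamin B12-intrinsic factor receptor, was at 0.48 and 0.51, 0.98 and 9.79, and 216 and 79.1 (log2 fold change 4.86, SE 0.70, edgeR adjusted p = 0.0019). Cubn had the largest log2 fold change of the group, and Hsp90b1, at 1.75, the smallest of the 16. Iars, Scp2 and Cyb5r4 did not pass, with log2 fold changes of 0.58, 0.55 and 0.12 and edgeR adjusted p of 0.35, 0.23 and 0.87.

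**Figure D4:**
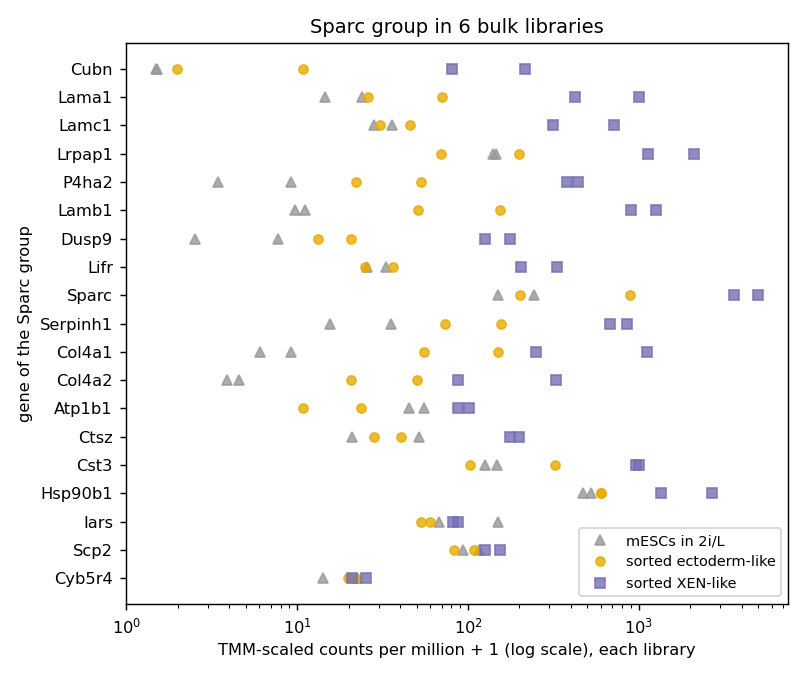
TMM-scaled CPM plus 1 (log scale) of the 19 Sparc group genes in 6 bulk libraries, 2 in 2i/L, 2 of sorted ectoderm-like and 2 of sorted XEN-like cells at 96 h. Each point is 1 library. The XEN points lie above the ectoderm points for Sparc (5012 and 3613 against 202 and 885) and close to them for Cyb5r4 (20.1 and 24.1 against 21.1 and 18.96).

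The lists that differed along the XEN sum in single cells were counted in the same test. Of the XEN list, 11 of 11 genes were higher in XEN, and of the ectoderm list 12 of 12 were higher in ectoderm, but XEN and ectoderm sorting defines these libraries. The counts ran from 8 to 11 for XEN over the alternatives, 8 both without the first ectoderm library (Col4a1, Col4a2 and Sox17 lost) and with DESeq2 (Col4a1, Dab2 and Pdgfra lost). They ran from 10 to 12 for ectoderm, with Mdk or Meis1 the genes lost. The counts that follow stand beside 6.98% of all tested genes higher in XEN and 5.71% higher in ectoderm. Collagen folding had 6 of 7 tested genes higher in XEN (median log2 fold change 2.62) and ER folding 8 of 10 (median 1.25). The cathepsin list had 3 of 7 higher in XEN. Imprinted genes had 7 of 11 higher in ectoderm (median -1.88). Pluripotency genes had 5 of 12 higher in XEN and 1 in ectoderm. Of the 12 replication genes, 1 was higher in ectoderm.

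At 72 h the gates, 1 library each and so without a test, showed the same genes at the time of the single cells. The Sparc group summed to 7404 CPM in PDGFRA+/CD24- cells and to 1930, 1351 and 1195 CPM in T1, T2 and T3. The ratio of the first to T3 was 6.195 (exact 95% interval 5.87 to 6.54, counting error only). Sparc was at 1329 CPM in PDGFRA+/CD24- cells and at 350, 258 and 193 in T1 to T3. Col4a1 was at 98.5 and at 39.6, 23.8 and 24.6. Prtg ran the other way, at 33.1 and at 117, 180 and 210, and so did Ccnd2, at 28.7 and at 35.0, 130 and 470. Unsorted cells at 72 h had more Sparc (1736 CPM) and more Col4a1 (424 CPM) than any gate. No mix of the gates can be higher than every gate, so for these genes the gates and the unsorted library are not parts and whole. The reason was not tested. Within a bulk library, fewer cells of a type and less RNA per cell cannot be told apart.

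The widest spread at 72 h was that of the Dcdc2c group. Of the 20 genes with the highest Fano factors, 19 belonged to it, led by 2310039L15Rik (54.3), Dcdc2c (52.8), Gm7102 (50.1), Gm20767 (29.3), 1700030L20Rik (25.8) and D17Ertd648e (24.6). Dcdc2c encodes a doublecortin domain protein, and most of the others are named only as predicted or Riken genes. The rest of the 20 were Gm21304 (22.3), B020004J07Rik (22.2), Gm4340 (19.9), Gm20765 (19.5), Gm6763 (19.3), Gm8764 (18.1), AA792892 (17.9), Gm21312 (17.7), the procollagen protease gene Adamts2 (17.5), Gm21293 (17.2), Rhbdd2 (9.53), the 2-cell gene Zscan4a (7.05) and the kinase gene Sgk1 (6.28), together with Rn45s. Rn45s, the 45S ribosomal RNA precursor, had a Fano factor of 24.0 at a mean of 87.0 thinned UMIs, belongs to no group and had a Fano factor of 27.4 already at 0 h. The group also held Zscan4c (6.15) and Zscan4f (4.18).

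These genes were high in few wells. Of the 33 genes, 24 were below 0.1 thinned UMIs at 0 h, and their sum was followed over the plates. At 72 h, 8 wells (3.40%) had 20 or more thinned UMIs of these 24 genes, a limit chosen after the data had been seen, and held 70.2% of them. The wells had 494, 479, 461, 144, 74.1, 59.8, 54.7 and 21.4 thinned UMIs, so that in the highest well 24.7% of all UMIs came from 24 genes. The next highest well had 13.9, and the median outside the 8 wells was 2.83, against 0.40 at 0 h. The plates had 0 such wells from 0 to 12 h, 2 at 24 h, 11 at 36 h, 15 at 48 h, 16 at 60 h, 8 at 72 h and 0 at 96 h. The Fano factor of Dcdc2c ran from 1.23 at 0 h to 50.8 at 60 h and 52.8 at 72 h, and was 1.07 at 96 h. These wells were thus found from 24 to 72 h and not on the first 3 plates or the last.

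**Figure D5:**
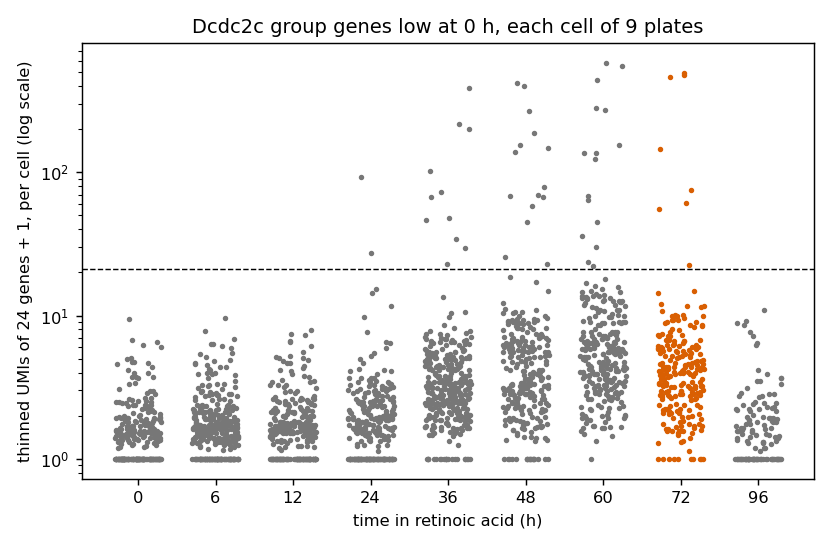
Summed thinned UMIs plus 1 (log scale) of the 24 Dcdc2c group genes that were low at 0 h, for each cell of the 9 plates, with the 72 h plate in orange. The dashed line marks 20 UMIs, which 8 cells at 72 h and none at 0, 6, 12 or 96 h reach.

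The 8 wells were set beside the other 227, first in genes of the group itself and in the 2-cell-like marker list. Per 10000 UMIs, Dcdc2c stood at 238 (exact 95% Poisson interval 226 to 251) in the 8 wells and at 4.39 (4.03 to 4.77) in the others, and Zscan4c at 13.8 (10.9 to 17.3) and 0.343 (0.248 to 0.462). Well D24 held 700 of the 1328 Dcdc2c UMIs of the 8 wells, and without it Dcdc2c was at 167. Without well E21, Zscan4c was at 8.198 in the other 7. The 2-cell-like marker list stood at 62.6 and 1.31. Its thinned sums in the 8 wells, in the order above, were 6.99, 16.8, 18.1, 35.4, 0, 2.50, 1.499 and 0, so that the well highest in Zscan4 genes was not among the 3 highest in the group and 2 wells had none. Dcdc2c, Zscan4c and Zscan4f belong to the group from which the wells were picked, and their rise with it is no separate support.

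Ectoderm list genes stood at 9.51 (7.12 to 12.4) in the 8 wells and 41.5 (40.3 to 42.6) in the others, and XEN list genes at 9.87 (7.44 to 12.8) and 24.2 (23.3 to 25.03). Well F24 held 33 of the 55 XEN list UMIs of the 8 wells, which were at 4.41 without it. Prtg was at 0.538 (0.111 to 1.57) and 9.93 (9.38 to 10.5), and Ccnd2 at 0.718 (0.196 to 1.84) and 5.69 (5.28 to 6.12). The few UMIs behind the lower values make them depend on single wells, with Prtg at 0.225 without well O8 and Ccnd2 at 0.188 without well J10. RA target genes stood at 3.41 and 13.4, imprinted genes at 6.64 and 22.2, cytoskeleton genes at 40.6 and 104, cholesterol synthesis genes at 2.33 and 13.0 and ER folding genes at 12.6 and 38.4. Mitosis genes were nearest in level, at 36.2 (31.4 to 41.6) and 42.2 (41.1 to 43.4). Well O8 held 62 of the 202 mitosis list UMIs of the 8 wells, and without it the list was at 31.4. The list holds Cenpf, a Sec23ip group gene with that group's 24-base run. Over all cells Cenpf had a mean of 2.22 of the list's 8.46 thinned UMIs. Its part in the level of the list in the 8 wells was not tested. Nanog was at 6.46 in the 8 wells and 3.41 in the others. Dppa5a, at 8.61 and 3.18, and the pluripotency list, at 15.6 and 8.99, rested on well E21, which held 35 of 48 Dppa5a UMIs and 38 of 87 UMIs of the list. Without E21, Dppa5a was at 2.60 and the list at 9.80. Nanog and Dppa5a, members of the Sec23ip and Dcdc2c groups, held 36 and 48 of the list's 87 UMIs in the 8 wells. In the other wells they held 427 and 399 of 1127. Nearly all list UMIs of the 8 wells were thus of these genes, and the list is no separate support. The Sec23ip group took 3436 of 10000 UMIs in the 8 wells and 1324 in the others, and since shares sum to a fixed total, a higher share of these genes comes with lower shares of others. The wells were not shallow, with a median of 5716 UMIs. As cells of 1 plate they are not replicates, and no test was made of these differences.

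The gates held the same genes unequally. Dcdc2c was at 707 CPM in T1, 228 in T2, 64.5 in T3 and 25.7 in PDGFRA+/CD24- cells, with a ratio of T1 to T3 of 11.0 (exact 95% interval 8.76 to 13.9). Zscan4c was at 381, 178, 69.8 and 5.88 CPM in the same order, and Gm4340 at 322, 74.1, 35.3 and 12.5. Unsorted cells at 72 h had 47.4 CPM of Dcdc2c and 38.1 of Zscan4c, below T1, T2 and T3. Of the gates, the one lowest in Cd24a among the PDGFRA- cells thus had the most Dcdc2c group RNA. Between sorted XEN and ectoderm at 96 h, 3 of 30 tested group genes were higher in XEN and 1 in ectoderm, beside 6.98% and 5.71% of all tested genes.

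Gene pairs within the group had the highest correlations of all. The 10 highest of the 2410110 pairs all lay in it and ran from 0.96 to 0.97, led by 2310039L15Rik with Dcdc2c (0.97), Dcdc2c with Gm7102 (0.97) and 1700030L20Rik with Gm20767 (0.97). The others were 1700030L20Rik with B020004J07Rik and with D17Ertd648e, Gm20767 with B020004J07Rik and with D17Ertd648e, and Gm21304 with Gm4340, Gm6763 and Gm20765. Some of these are near copies, so that counts could pass between them. Transcripts of Gm21304 matched Gm6763 and Gm20765 at 100% over 1246 bases and Gm4340 at 99.05% over 1258 bases, and Dcdc2c matched Gm7102 at 97.1% over 491 bases. The longest alignment of Dcdc2c with 2310039L15Rik was at 76.7% over 339 bases. Both hold the group's 24-base run, and the stretch of AA792892 aligned to them at 92.7% over 109 bases and 96.3% over 108 bases. Of the group's 528 pairs, 331 reached 0.3, and 286 of these (86.4%) still did without the 1 well that added most to each. The median r of the pairs was 0.00 at 0, 6, 12 and 96 h, 0.05 at 24 h, 0.37 at 36 h, 0.49 at 48 h, 0.50 at 60 h and 0.40 at 72 h. Dppa5a was joined to the group through its near copy Gm6083 (r of 0.64, 96.9% identity over 357 bases).

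The Sec23ip group was different in kind, since it was broad and present on every plate. Its 83 genes summed to a mean of 317 of 2000 thinned UMIs per cell and to 1414 per 10000 over all cells, and no cell had fewer than 337 per 10000. By level it was led by Ppp1r16b (mean 13.4, Fano factor 5.84), Ogdh (13.0, 6.12), Gmeb1 (12.2, 5.04), Sec23ip (12.1, 4.74), Dennd5b (11.2, 4.55) and Ttf1 (9.77, 4.32). These genes encode a phosphatase subunit, a mitochondrial dehydrogenase, a DNA-binding protein, a vesicle coat partner, a membrane traffic regulator and a transcription terminator, and the group has no function in common that its names show. Of the 76 with a transcript, 66 share the stretch described above. Of its 3403 pairs, 2535 reached 0.3, which was 42.1% of all pairs that did, and 1899 of these (74.9%) still did without the well that added most. The median r was 0.37 at 72 h and lay between 0.26 and 0.40 on all 9 plates. Among other tested genes, an r of at least 0.2 with the group's sum was found for 13.7% of the 102 that hold the stretch at 90% identity or more, against 0.538% of the 2601 without it. Most of the 102 did not follow the group, with a median r of -0.05 against -0.06 for the 2601.

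Nanog, a transcription factor of pluripotency, fell in this group. It had a mean of 0.789 and a Fano factor of 1.63, 0.986 times the running median, and its r with the group's sum was 0.44. It had an r of 0.40 with Sec23ip and 0.34 with Cxcr2, and of -0.06 with Sox2, another pluripotency factor. The longest alignments of Nanog transcripts to Sec23ip and Cxcr2 were at 91.4% over 197 bases and 91.6% over 215 bases. The group's sum had an r of -0.01 with Pou5f1 and -0.02 with Sox2. Which gene a read with the stretch came from cannot be told apart in these counts, so values of Nanog and of the group are uncertain.

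The pairs that excluded each other most involved the same group. The 10 lowest correlations were Bcas2 with Eef1a1 (-0.37), Hsp90ab1 with Ppp1r16b (-0.36), Ttf1, Nip7, Dennd5b and Rab33b (-0.35, -0.35, -0.35 and -0.34), Gnb2l1 with Dennd5b (-0.35), and Eef1a1 with Sec23ip, Irak1 and Ttf1 (-0.35, -0.34 and -0.34). In each pair 1 gene is of the Sec23ip group, and the other is an abundant housekeeping gene, namely Eef1a1 (a translation elongation factor), Hsp90ab1 (a chaperone) or Gnb2l1 (a ribosomal scaffold). These are trade-offs in level and not exclusive use, since nearly every cell had UMIs of both, as for Bcas2 and Eef1a1, detected together in 98.4% of cells after thinning. The pair of Bcas2 and Eef1a1 was at -0.40 at 48 h, -0.43 at 60 h and -0.32 at 96 h. The group's sum had an r of -0.38 with Eef1a1, -0.35 with Rn45s, -0.38 with the genes detected and -0.18 with the total UMIs of a well, and of -0.42, -0.36 and -0.32 with the cytoskeleton, heat shock and glycolysis lists. The deep wells N3, F5, J9 and J11 (29104 to 53697 UMIs) had 72.5 to 85.1 thinned UMIs of the group and 14.6 to 15.6 of Eef1a1. Well G15 (32193 UMIs) had 127 and 8.76. Values like those of the first wells were also found at lower depth, as in L15 (3468 UMIs, 79.6 and 17.9) and E23 (6762 UMIs, 80.4 and 16.6). Wells B12 (17155 UMIs) and B18 (14613 UMIs) had 509 and 446 of the group and 5.13 and 8.90 of Eef1a1. Whether the deep wells held 1 cell was not tested. The part of depth and of the number of detected genes in these values was not tested either. In the gates the group (82 genes counted) was at 96177, 59606 and 50694 CPM in T1, T2 and T3 and at 29330 in PDGFRA+/CD24- cells. Between sorted XEN and ectoderm, 8 of 82 tested members were higher in ectoderm, beside 5.71% of all tested genes (median log2 fold change -0.69 against -0.06 over all).

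Outside the 3 groups, 3095 pairs reached 0.3, but 63 of these (2.04%) still did without the 1 well that added most. The 10 highest were of 2 kinds. Dnajc14 with Ormdl2 (0.72), Rnaset2a with Rnaset2b (0.67), Gstp1 with Gstp2 (0.63) and Gm7367 with Ubald2 (0.61) share transcript sequence of 94.2% to 100% identity over 492 to 2456 bases, and had r of 0.31 to 0.70 at 48, 60 and 96 h. Fkbp9 with Utp11l (0.64), Ankrd13a with Elp5 (0.63), Nkrf with Wdr70 (0.62), Elp5 with Utp15 (0.61) and with Ptdss2 (0.60), and Dpy19l1 with Ints6 (0.60) had r of -0.07 to 0.11 on those plates.

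The other gene lists varied less. Among RA target genes, 9 of 10 were tested and all 9 passed (median Fano factor 1.93), with Cyp26a1, the RA-degrading enzyme, at 2.26 (mean 0.333) and the retinaldehyde reductase gene Dhrs3 at 2.09. Cyp26a1 had an r of 0.32 with the XEN list sum, and Dhrs3 of -0.09. On the Hox list, Hoxb5 (1.71) and Hoxa5 (1.65) were the 2 tested genes. Imprinted genes had 6 of 9 tested above the threshold, led by the growth factor Igf2 at 3.47 (mean 0.319), 2.01 times the running median, with Mest at 2.47 and Peg10 at 2.42. The r of Igf2 was 0.04 with the XEN sum and -0.04 with the ectoderm sum, so that its spread followed neither list. The keratins Krt8 (3.74) and Krt18 (2.03) had an r of 0.47 with each other and of 0.08 and 0.03 with the XEN sum, and 92.0% of the Krt8 UMIs lay in its top 24 cells.

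Secretory genes varied with the XEN genes. All 9 tested ER folding genes passed, with the disulfide isomerase Pdia6 at 2.42, Hsp90b1 at 2.36 and the translocon gene Ssr3 at 1.91, and all 4 tested collagen folding genes passed, with the lysyl hydroxylase Plod2 at 2.71, P4hb at 1.97 and Serpinh1 at 1.94. The collagen folding sum had an r of 0.69 with the XEN sum (0.35 at 60 h and 0.70 at 96 h) and the ER folding sum of 0.59 (0.35 at 60 h and 0.58 at 96 h), against -0.01 and 0.00 at 0 h. Of 276 pairs of list sums, with a median r of 0.01, these were the highest, and 15 pairs were at 0.2 or more in either direction. The next were collagen folding with ER folding (0.43) and keratins with the cytoskeleton list (0.43).

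Cell cycle lists were near the spread of all genes. In the replication list 8 of 11 tested genes passed (median 1.57), with the histone mRNA-binding Slbp at 2.01 and the sliding clamp Pcna at 1.90, and in the mitosis list 10 of 12 (median 1.67), with the centromere genes Cenpa at 2.27 and Cenpe at 2.24. Glycolysis had 6 of 9 (median 1.53), led by Eno1 at 1.89, cholesterol synthesis 7 of 9 (median 1.68), with the squalene epoxidase gene Sqle at 2.08, and the cytoskeleton 6 of 8 (median 1.94), led by Actg1 at 2.47. The cathepsin list had 5 of 6 (median 1.90), p53 targets 4 of 4 (median 1.79), histones 2 of 2, heat shock genes 2 of 3, and the oncofetal list 2 of 5 (median 1.39). In the pluripotency list 3 genes were tested and passed, Dppa5a (2.59), Nanog (1.63) and Sox2 (1.56), and in the epiblast list the DNA methyltransferase gene Dnmt3a alone was tested (1.18) and did not pass. These shares stand beside 66.2% of all tested genes.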

How the data were processed

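SCRB-seq reads had been aligned by the authors with BWA 0.7.4 to mouse RefSeq mRNAs (UCSC mm10), the mitochondrial genome and ERCC spike-ins, and UMIs had been counted per gene and well. The authors deposited these counts raw, for wells as for bulk libraries, with no normalization. Alignment was to mRNAs, so a read from a stretch that several mRNAs share could be counted for any of them. Counts of the 235 cells (2017 to 53697 UMIs each) were thinned to 2000 UMIs by exact expectation, with no doublet caller and no other filter on wells. Genes with a mean of 0.1 or more were tested for a Fano factor of 1.5 or more, and pairs of genes above that were called at an r of 0.3 or more or -0.2 or less. The 24 gene lists, the cells and the tests were chosen with earlier results of these data known. The 3 gene groups, the XEN ranges, the limit of 20 UMIs for wells of the Dcdc2c group and the pairs of Sparc with genes other than the markers were chosen after these values had been seen.

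Genes named are the 4 markers, the 20 highest Fano factors, the 10 highest and 10 lowest pairs, the 8 genes highest in r with the XEN and with the ectoderm list, tested members of the XEN, ectoderm, pluripotency and epiblast lists and up to 3 members of each other list by Fano factor. Other genes named were chosen after their values were seen. Some genes that meet this rule are not reported here. Bulk libraries (1097083 to 2297225 counts in the 6 replicated libraries, 1133574 to 1360541 in the gates, 1835164 unsorted at 72 h) were analysed with edgeR 4.0.16 (quasi-likelihood, TMM, filter on low counts, the 6 libraries fitted together, R 4.3.3), and DESeq2 1.42.0 was an alternative. In bulk, Rn45s and Gkn2 were not counted, so library totals and CPM hold neither. Of the counts then left, 4 rows of duplicated names (0.00435%) were left out. Gates have 1 library each and were given as CPM with exact Poisson intervals, which cover counting error only. Scripts were tested on simulated data. In the simulated sorted XEN and ectoderm comparison over 8506 genes, edgeR recovered 72 of 99 genes changed by a log2 fold change of 2 and 93 of 96 changed by 3, with 7 false calls. Shared sequence was searched with BLAST 2.17.0 in GENCODE M21 transcripts, with an E-value of 1e-10 or less to choose the stretches and to compare pairs of genes. A gene was counted as holding a stretch if at least 75% of its length aligned, at a looser E-value. Promoters are from RefSeq GRCm38.p6, matched for 22 of 33, 60 of 83 and 16 of 19 genes of the Dcdc2c, Sec23ip and Sparc groups. Calculations used Python 3.11.15, numpy 2.4.6, scipy 1.17.1, pandas 2.3.3 and networkx 3.6.1.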

Additional observations from a re-analysis of the deposited data

How the results depend on the processing

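Of the values that answer a comparison, 70 held under an alternative and 38 moved. Among these, r of Sparc with Ccnd2 and of Prtg with Ccnd2, near 0 in the values reported, changed sign in ranks and on the log2 scale. Of those for single genes, 394 held, 96 moved, 6 became stronger and 11 weaker. The 2196 genes above Poisson spread became 305 after thinning to 1000 UMIs, 1220 at a mean of 0.2 or more, 576 at a Fano factor of 2 or more and 171 at 1.5 times the running median. The mean Fano factor was 1.45 after thinning to 1000 UMIs. The 6026 pairs that varied together became 1203 after thinning to 1000 UMIs, 18075 and 3161 at a mean of 0.05 and 0.2 or more, and 2288 without the well that added most to each pair. The 816 pairs that excluded each other became 1384 in wells with more than 3000 UMIs, 95 after thinning to 1000 UMIs, 1467 in 1 random thinning, 25271 with Spearman's coefficient, 10688 with log2 values and 437 without the wells high in the Dcdc2c group. The r of Sparc and Col4a1 was 0.50 after thinning to 1000 UMIs, 0.48 with Spearman's coefficient and 0.79 with the Poisson part of the variances taken out. With Spearman's coefficient and with log2 values, r was 0.14 and 0.11 for Prtg and Ccnd2, 0.14 and 0.069 for Sparc and Ccnd2, and -0.0028 and -0.14 for the XEN and ectoderm sums. The running median and the leaving out of wells (single ones, or those high in the Dcdc2c group) were chosen after seeing the data. Genes higher in sorted XEN and in sorted ectoderm ranged from 131 to 744 and from 131 to 626 with 1 library left out (131 and 131 without the first ectoderm library). DESeq2 called 244 genes higher in ectoderm, and no filter on low counts gave 829. With the replicate number as a block the counts were 1324 and 1286, but the labels do not say that the numbers pair the libraries, whose deviations had an r of 0.33 over 8945 genes in 2 pairs. The XEN list ratio of PDGFRA+/CD24- cells to T3 was 12.3 by CPM, 11.0 over Gapdh and 8.36 over Actb, and 5.50 against T1. The cause of these changes was not tested. Depth limited the cells, since at 2000 UMIs a gene at a mean of 0.1 is seen in few of them, and 1 plate per time leaves time and plate impossible to tell apart.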
